A study of Homo sapiens with 54 samples.

Results

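Genes that run mitosis were followed in H4 cells, a human glioneuronal cell line, harvested 48 h after transfection with 1 of 9 small RNAs. The 50 genes were taken from a list of cyclins, mitotic kinases, checkpoint proteins, passenger proteins, kinesins, kinetochore proteins, cytokinesis factors and chromosome proteins, with 1 probe set per gene (the one with the highest mean). Of the 50, 49 had a probe set of their own among the 18417 genes of the array, and CENPA, which encodes the histone variant of centromeres, shared its probe set with SLC35F6 and was left out. Of these 49, 27 lay above a filter that removed the lowest 40% of genes by mean over all arrays, and 22 lay below it.

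Of the RNAs transfected, 4 were microRNAs of the miR-15/107 group: miR-103 and miR-107 on one branch, miR-16 and miR-195 on the other. The remaining ones were miR-320, miR-15b* (written miR-15b in the sample titles), miR-107-mut1 with miR-107-mut2 (altered forms of miR-107), and the Ambion negative control. Every culture was thus transfected, and the negative control is the baseline of all comparisons against control. From each transfection came 3 biological replicates of total lysate RNA and 3 of RNA co-precipitated with anti-Argonaute antibody 2A8 (the IP), for 54 Affymetrix Human Gene 1.0 ST arrays. H4 is 1 cell line, and a transfected microRNA comes on top of what the cells make themselves.

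Argonaute proteins carry a microRNA to messages that pair with its seed, bases 2 to 8, and those messages are then repressed or degraded. In mitosis cyclin B with CDK1 drives entry, Polo and Aurora kinases build the spindle, the checkpoint holds anaphase until every kinetochore is attached, and kinesins and the central spindle then split the cell. The genes of this machinery are transcribed together late in the cell cycle and fall silent in cells that leave it, so in a lysate of a whole culture fewer cells in mitosis and less of each RNA per cell cannot be told apart.

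The microRNAs are shown because the comparisons turn on their seeds, given in capitals in the RefSeq mature sequences (GRCh38.p14), 5′ to 3′.
miR-103: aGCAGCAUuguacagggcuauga
miR-107: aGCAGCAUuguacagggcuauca
miR-16: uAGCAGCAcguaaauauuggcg
miR-195: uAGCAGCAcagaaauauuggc
miR-15b*: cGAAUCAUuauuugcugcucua
miR-103 (matched to hsa-miR-103a-3p) and miR-107 shared the seed GCAGCAU and differed by the substitution G22C, counted from 1 at the 5′ end. miR-16 and miR-195 shared the seed AGCAGCA and differed over the 21 bases compared by G10A and U11G. The run AGCAGC was common to all 4, from base 1 in miR-103 and miR-107 and from base 2 in miR-16 and miR-195, and it was not found in miR-15b*. The mature miR-107 sequence lies at chr10:89592756-89592778 on the minus strand within the span of PANK1, and miR-195 at chr17:7017667-7017687 on the minus strand. miR-16 is encoded at chr3:160404754-160404775 and at chr13:50049027-50049048, and miR-15b* at chr3:160404645-160404666. The chromosome 3 copies lie within the span of SMC4, a condensin gene that is itself among the 50. Which bases were altered in miR-107-mut1 and miR-107-mut2 was not used here.

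Promoter stretches are shown for examples among the genes that fell in the lysate. A pair of elements known from late cell cycle promoters, the CHR element (TTTGAA, or TTCAAA on the other strand) and the CCAAT box (CCAAT, or ATTGG on the other strand), were searched in the 250 bases before each start in RefSeq (GRCh38.p14). Where they abut they can share a base, and each was counted on its own. The elements are in capitals in these 100-base stretches, each read on the gene's strand and ending just before its start.
CCNB2: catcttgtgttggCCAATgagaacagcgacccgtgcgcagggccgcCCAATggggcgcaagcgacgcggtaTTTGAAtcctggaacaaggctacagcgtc
PLK1: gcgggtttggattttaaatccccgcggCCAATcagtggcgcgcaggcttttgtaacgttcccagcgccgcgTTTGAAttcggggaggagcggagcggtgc
PRC1: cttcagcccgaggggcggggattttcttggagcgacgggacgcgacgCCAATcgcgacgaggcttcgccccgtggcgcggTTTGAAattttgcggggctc
PRR11: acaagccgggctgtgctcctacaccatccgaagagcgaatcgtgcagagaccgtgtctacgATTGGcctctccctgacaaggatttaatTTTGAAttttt
They lie at chr15:59105046-59105145 on the plus strand for CCNB2, chr16:23678789-23678888 on the plus strand for PLK1, chr15:90994536-90994635 on the minus strand for PRC1 and chr17:59155646-59155745 on the plus strand for PRR11. In CCNB2 and PLK1 alike the CHR element began 29 bases before the start. Of the 50 genes, 45 had a listed promoter, 57 promoters in all. The CHR element was in 28 of the 57 (49.1%), against 8.43% of the 12797 promoters of genes tested and 13.3% of all 35116 listed. The CCAAT box was in 40 (70.2%), against 31.9% and 32%. Both were in 22 (38.6%), against 3.05% and 4.69%. The stretches shown all hold both elements, unlike most of the 57. By gene, 26 of the 45 had the CHR element in a listed promoter. CCNB1 and KIF20A, which fell in the lysate, had no exact match to it in the 250 bases, and INCENP, with small lysate changes, had both elements. Other spellings of the elements and bases after the start were not searched. Whether the elements go with the lysate change was not tested. A match of letters is a description of the sequence and not a bound site.

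Levels are deposited log2 intensities, in which a difference of 1 is a factor of 2, and ± after a level is an SD over 3 arrays. Array means lay between 3.61 and 3.65 in the IP and between 7.11 and 7.17 in the lysate, so the fractions were tested apart. Of 28 markers, 26 were on the array. The neuronal markers had 5 of 8 above the filter, the glial markers 6 of 9, the epithelial markers 2 of 4 (the keratins KRT8 and KRT18) and the haematopoietic markers 0 of 5. Of all 18417 genes the filter left 11050, a share near those of the neuronal and glial markers. These counts therefore do not identify the cell type. By median correlation with the other arrays of their fraction, 4 arrays stood apart: IP replicate 1 of miR-15b* and lysate replicate 2 of miR-103, miR-15b* and miR-16.

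By their median, the mitosis genes lay above all genes in the lysate and below them in the IP. Of the 49, 19 were below the lysate median of all genes and 32 below the IP median. These means pool control arrays with arrays on which the genes were lower. On the control arrays the median percentile of the 27 tested mitosis genes ran from 58.2 to 69.4 in the IP and from 83.1 to 85.3 in the lysate. Those percentiles are among all 18417 genes, and the filter that the 27 passed raises them, so they do not describe the 49. Over all lysate arrays their mean levels ran from 4.74 (CENPE, a kinetochore kinesin) to 10.92 (PLK1, the Polo kinase), with a median of 8.14 against 7.71 for all genes. Over all IP arrays they ran from 1.65 (CENPE) to 6.13 (PLK1), with a median of 2.70 against 3.61 for all genes. In the IP 22 of the 49 were below the lower quartile of all genes (2.59) and 6 above the upper one (4.86), namely PLK1, CDC25B, CDC20, AURKB, CDCA8 and KIF18B. Of those 22 below the lower quartile 1 passed the filter (BUB1, a checkpoint kinase). Of the 22 genes below the filter, 14 were in the lowest 40% by lysate mean too, and 8 were left out through their IP level: CDK1, NEK2, CENPF, NCAPG, KIF23, ECT2, SMC4 and MAD2L1. Probe sets differ in response, so these levels place genes on the array's scale and do not rank their amounts of RNA.

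With each of the 4 microRNAs of the miR-15/107 group, nearly all tested mitosis genes fell in the lysate. Called here means an adjusted p under 0.05 in limma with Benjamini-Hochberg adjustment over 11050 genes. With miR-103, 26 of 27 fell (8.88% of all genes tested fell) with a median log2 change of -1.92, and with miR-107, 25 of 27 (8.35%) with a median of -1.85. With miR-16, 26 of 27 fell (7.45%) with a median of -2.12, and with miR-195, 27 of 27 (7.22%) with a median of -1.96. The median over all genes tested was within 0.06 of 0 in each lysate comparison with control. Each called gene's 3 treated arrays all lay below its 3 control arrays, which held for 17.1%, 22.3%, 12.5% and 19% of all genes tested in these 4 comparisons. The comparisons against control share the same 3 control arrays, so they are not independent of each other. Without the 4 arrays that stood apart the counts were 26, 26, 27 and 27. Those fits called 2668, 3006, 2330 and 2924 of all 11050 genes in either direction.

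Array by array, the median over the 27 genes of the level minus the control mean was -2.19, -1.95 and -1.54 with miR-103 and -2.10, -1.69 and -1.59 with miR-107. It was -2.08, -2.14 and -2.00 with miR-16 and -1.98, -1.90 and -1.82 with miR-195. The control arrays themselves were at -0.17, 0.06 and 0.10, so every one of these 12 lysates was clear of the control range.

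**Figure D1:**
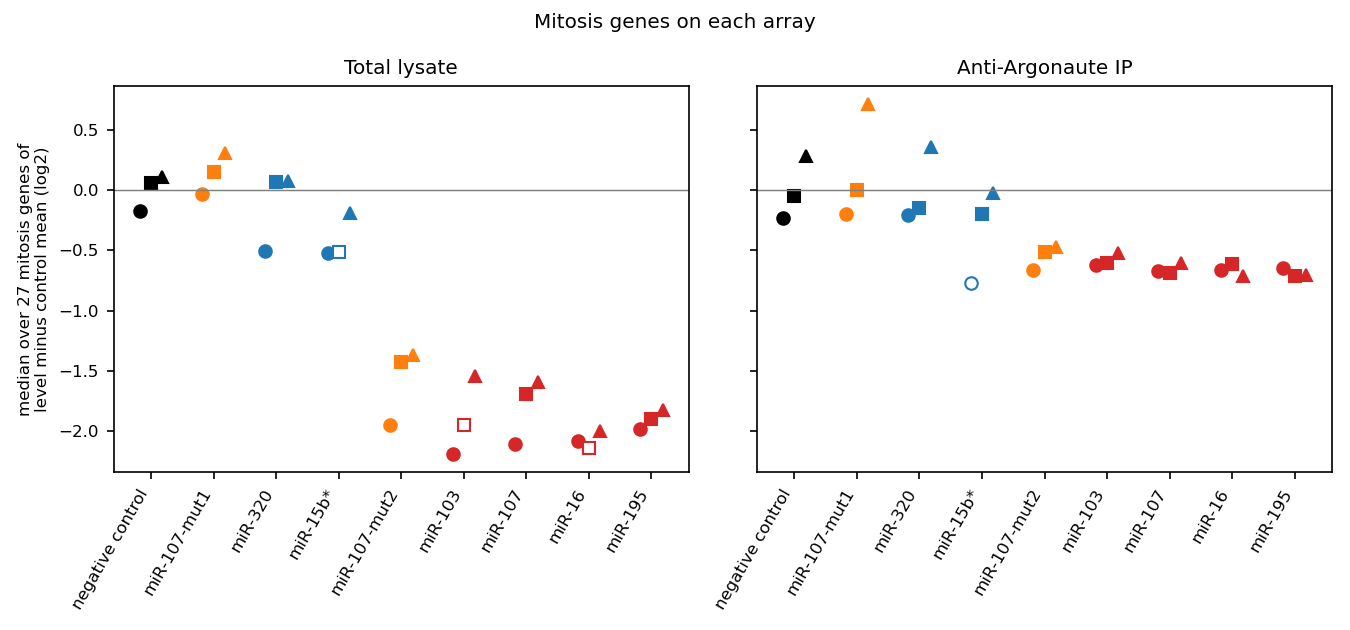
Median over 27 mitosis genes of the log2 level minus the control mean (y axis) on each array of the 9 transfections (x axis), total lysate on the left and IP on the right. Circles, squares and triangles are replicates 1, 2 and 3, open symbols are the 4 arrays that stood apart, black is the control, red the miR-15/107 group, orange the altered miR-107 forms and blue the others. The 12 lysates of the miR-15/107 group lie between -2.19 and -1.54, and miR-107-mut2 lies near them while miR-107-mut1 lies near the control.

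The genes of mitotic entry held cyclins that fell with all 4 microRNAs and a phosphatase that did not. CCNB1 encodes cyclin B1, the main partner of CDK1. It was at 10.09, 10.21 and 10.15 in control lysate, at 7.67, 7.95 and 8.10 with miR-107 and at 7.79, 7.88 and 7.83 with miR-195. The groups were more than 1 log2 unit apart, and the miR-107 change was -2.24 ± 0.16 (SE, 4.73-fold lower, adjusted p = 3.9e-09 by limma). CCNB2, the second B-type cyclin, was at 10.48, 10.71 and 10.77 in control lysate and at 8.10, 7.69 and 8.05 with miR-16, a change of -2.71 ± 0.25 (adjusted p = 1.2e-07 by limma). Its values of 8.26, 8.28 and 9.04 with miR-103 were also all below control. CDC25C, a phosphatase that switches CDK1 on, fell with all 4 microRNAs.

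CDC25B, the related phosphatase that acts first at the centrosome, was the gene that did not follow. It was at 10.41, 10.36 and 10.43 in control lysate, 10.25, 10.67 and 10.36 with miR-103, and 10.39, 10.43 and 10.32 with miR-107. These groups overlapped, with changes of 0.03 ± 0.16 (adjusted p = 0.92 by limma) and -0.02 ± 0.16 (adjusted p = 0.97 by limma). With miR-16 it was at 9.94, 10.26 and 9.58 and with miR-195 at 9.99, 9.60 and 9.70. It fell there by 0.47 ± 0.16 (adjusted p = 0.043) and by 0.64 ± 0.16 (adjusted p = 0.0069), smaller changes than those of the cyclins. The miR-16 fall missed the threshold without a filter on low genes (adjusted p = 0.052) and in 5 of 6 fits that left out 1 array.

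Among genes of the spindle poles, PLK1 had the largest change of the 27 with miR-103 and with miR-107. It was at 12.17, 12.09 and 12.23 in control lysate, at 9.43, 9.92 and 9.93 with miR-103 and at 9.56, 9.53 and 9.52 with miR-107. The miR-103 change was -2.40 ± 0.19 (5.28-fold lower, adjusted p = 1.2e-08 by limma). The Aurora kinase gene AURKA and TPX2, which activates that kinase at the spindle, fell with each of the 4 microRNAs, so 3 of 3 tested genes of this group fell in every one.

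The checkpoint and anaphase genes fell in 6 of 6 cases with miR-103, miR-16 and miR-195 and in 5 of 6 with miR-107. They include CDC20, which activates the anaphase promoting complex, PTTG1, which holds separase back, and ESPL1, separase itself. The exception was BUB3, a checkpoint protein present through the cell cycle. It was at 10.13, 10.32 and 10.26 in control lysate, 9.76, 9.99 and 9.96 with miR-107 and 9.66, 9.71 and 9.89 with miR-16. The groups did not overlap, yet the miR-107 change of -0.34 ± 0.13 did not pass (adjusted p = 0.077 by limma). With miR-16 BUB3 fell by 0.48 ± 0.13 (adjusted p = 0.009 by limma), with miR-103 by 0.46 and with miR-195 by 0.38. The miR-195 fall did not pass without the filter (adjusted p = 0.059) or in 5 of 6 fits that left out 1 array. With only the arrays compared, none of the 3 falls of BUB3 passed (adjusted p = 0.055 with miR-103, 0.095 with miR-16 and 0.092 with miR-195).

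In the chromosomal passenger complex, which corrects attachments at the centromere, 3 genes had larger changes than the scaffold, a difference between genes that was not tested. The kinase gene AURKB was at 10.11, 10.15 and 9.93 in control lysate and at 7.96, 8.29 and 8.33 with miR-107. The borealin gene CDCA8 was at 9.79, 9.93 and 10.03 in control lysate and at 7.54, 7.72 and 7.62 with miR-107, a change of -2.29 ± 0.19 (adjusted p = 2.8e-08 by limma). BIRC5, which encodes survivin, fell too. INCENP, the scaffold, was at 8.17, 8.14 and 8.38 in control lysate and at 7.73, 7.91 and 7.80 with miR-107. Its changes were -0.41 ± 0.12 with miR-103 (adjusted p = 0.017 by limma), -0.42 with miR-107, -0.46 with miR-195 and -0.30 with miR-16, where 7.83, 8.14 and 7.81 reached the control range and the test did not pass (adjusted p = 0.08). With only the arrays compared in the fit, the miR-103 fall of INCENP did not pass (adjusted p = 0.086), and its falls with miR-103 and with miR-107 each missed the threshold in 3 of 6 fits that left out 1 array.

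The kinesins move chromosomes and build the midzone. Of 10 on the array, 3 passed the filter (KIF18B, KIF20A and KIF2C) and all 3 fell with each of the 4 microRNAs. KIF20A, needed for cytokinesis, was at 10.99, 11.24 and 11.42 in control lysate, 8.54, 8.40 and 8.41 with miR-16 and 8.66, 8.42 and 8.71 with miR-195. The miR-16 change was -2.76 ± 0.30 (adjusted p = 1e-06 by limma), and the 3 arrays with miR-103 were more spread, at 8.36, 8.82 and 9.75. The midzone genes PRC1, which bundles antiparallel microtubules, and ANLN, an actin-binding protein of the cleavage furrow, fell with each of the 4. ANLN was at 9.01, 10.07 and 9.86 in control lysate and at 7.07, 6.93 and 7.93 with miR-103 (-2.34 ± 0.39, adjusted p = 0.00015 by limma).

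Of the chromosome structure genes, TOP2A (topoisomerase II), NCAPH (a condensin subunit) and the proliferation antigen gene MKI67 were tested and fell with each of the 4. MKI67 was at 9.17, 9.84 and 9.54 in control lysate and at 7.08, 6.81 and 7.58 with miR-103, a change of -2.36 ± 0.29 (adjusted p = 3.5e-06 by limma). PRR11, a proline-rich protein of late cell cycle, had the largest change of the 27 with miR-16. It was at 10.38, 10.97 and 10.89 in control lysate, at 8.01, 7.65 and 8.03 with miR-16 and at 8.02, 8.41 and 8.43 with miR-195. The miR-16 change was -2.85 ± 0.31 (7.22-fold lower, adjusted p = 1e-06 by limma).

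**Figure D2:**
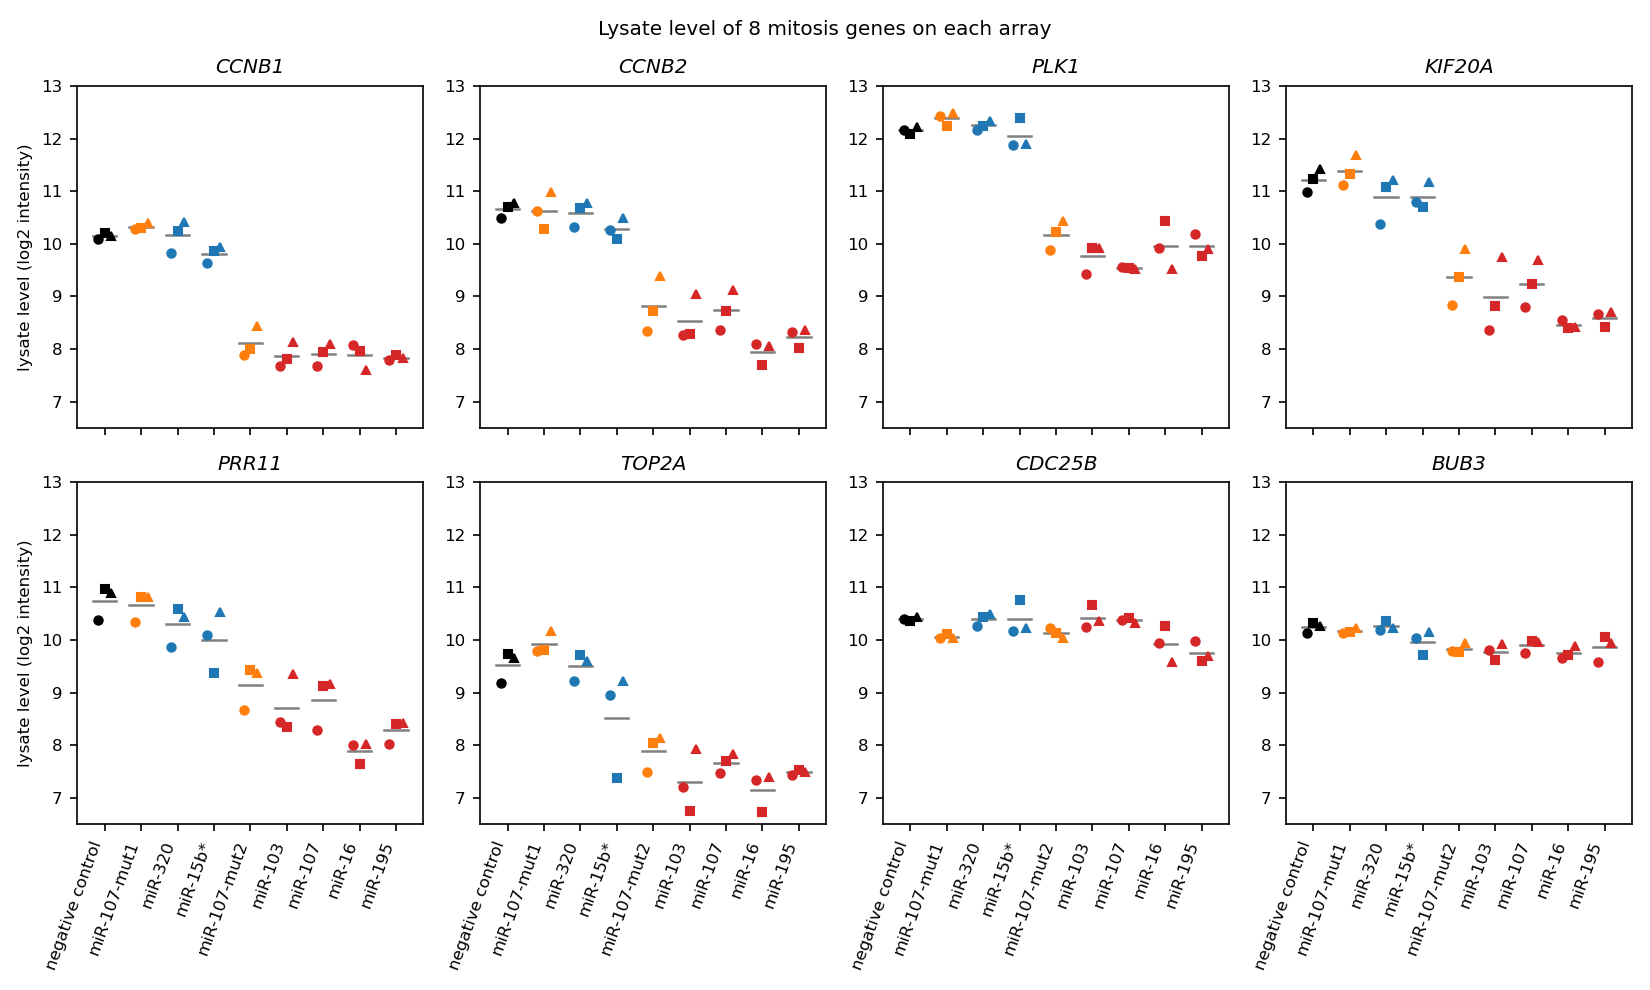
Lysate level in log2 intensity (y axis) of 8 mitosis genes on each array of the 9 transfections (x axis), with replicates 1, 2 and 3 as circles, squares and triangles and the mean as a grey bar. Colours are as in the plot of array medians. CCNB1, CCNB2, PLK1, KIF20A, PRR11 and TOP2A drop in the miR-15/107 group and with miR-107-mut2, while CDC25B and BUB3 stay between 9.58 and 10.77 on all 27 arrays.

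Most of the 22 genes below the filter also fell in the lysate when the fit was run on all 18417 genes. There 47 of the 49 fell with miR-103 (7.8% of all genes), 42 with miR-107 (6.72%), 47 with miR-16 (6.17%) and 43 with miR-195 (5.7%). Of the 22 themselves 21, 17, 22 and 17 fell, with medians of -1.71, -1.44, -1.71 and -1.49. They hold all 5 kinetochore genes (CENPE, CENPF, NDC80, NUF2 and SPC25), and each of the 5 fell with each of the 4 microRNAs. SPC25, a subunit of the complex that grips microtubules, was at 8.28, 8.53 and 8.30 in control lysate and at 5.05, 5.22 and 4.96 with miR-103, a change of -3.29 ± 0.18 (adjusted p = 8.6e-11 by limma), larger than any of the 27. CDK1, the partner of the cyclins, fell by 2.36 ± 0.36 with miR-16 (adjusted p = 6.9e-05 by limma) and by between 1.38 and 2.02 with the other 3. DLGAP5, a spindle assembly factor, fell by 2.79 ± 0.44 with miR-16 (adjusted p = 0.00011 by limma).

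A few genes below the filter did not pass with every microRNA. SMC4, the condensin ATPase gene, fell with miR-16 (-2.03 ± 0.49, adjusted p = 0.0066 by limma, level 6.74 ± 1.23 over 3 arrays) and was at -1.39 with miR-103 (adjusted p = 0.06), -0.71 with miR-107 (adjusted p = 0.51) and -1.09 with miR-195 (adjusted p = 0.2). The kinesin genes KIF11, KIF14 and KIF18A and the cytokinesis factor gene ECT2 fell with miR-103 and miR-16. With miR-107 they lay between -1.18 and -0.89 and with miR-195 between -1.15 and -0.81, with adjusted p-values from 0.053 to 0.19. MAD2L1, which carries the checkpoint signal, fell with all 4.

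**Figure D3:**
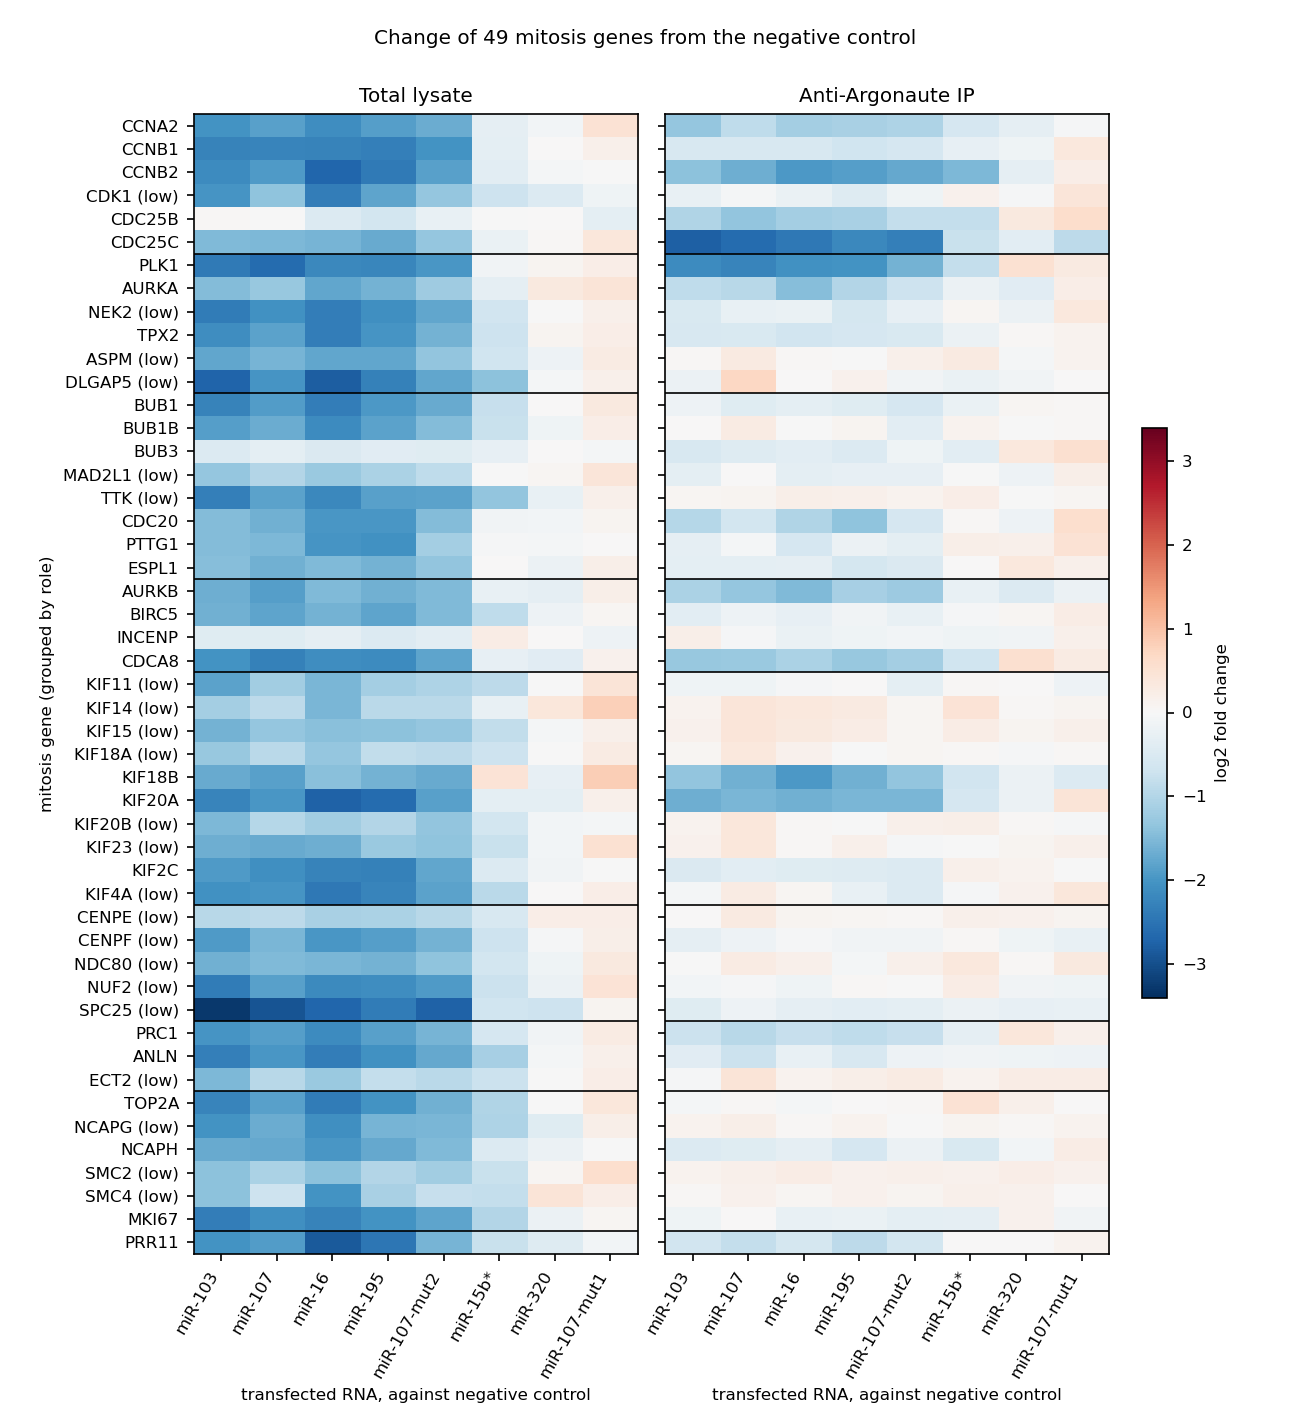
Log2 fold change against the negative control (colour, blue lower and red higher) of 49 mitosis genes (rows, grouped by role with black lines between groups) in 8 transfections (columns), total lysate on the left and IP on the right. Genes marked low lay below the filter. In the lysate the first 5 columns are blue in nearly every row except CDC25B, BUB3 and INCENP, and in the IP the strongest blue is at CDC25C and PLK1.

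The next comparison set the 6 arrays of miR-103 and miR-107 against the 6 of the other branch, the branches whose seeds are offset by 1 base. Of 27, 0 were lower and 2 higher with miR-103 and miR-107 (6.47% of all genes tested were lower and 3.57% higher), with a median difference of 0.08, and 8 had an unadjusted p under 0.05. CDC25B was at 10.40 ± 0.15 against 9.85 ± 0.27 over 6 arrays each, a difference of 0.56 ± 0.11 (1.47-fold, adjusted p = 0.0017 by limma). PRR11 was at 8.79 ± 0.48 against 8.09 ± 0.29, a difference of 0.70 ± 0.22 (1.62-fold, adjusted p = 0.046 by limma). In both genes the arrays of the 2 branches overlapped, and PRR11 did not pass without the filter (adjusted p = 0.059) or in 9 of 12 fits that left out 1 array. The count of calls was 4 without miR-103 replicate 1, and 1 without each of miR-103 replicate 3, miR-107 replicates 2 and 3, miR-16 replicate 1 and any miR-195 replicate. Without the filter 1 of 49 was lower (4.33% of all genes), SPC25, at 5.25 ± 0.29 against 5.84 ± 0.18 (-0.59 ± 0.13, adjusted p = 0.0054 by limma), again with overlapping arrays. KIF20A (0.59, adjusted p = 0.088), PTTG1 (0.55, adjusted p = 0.098), CCNB2 (0.54, adjusted p = 0.056) and PLK1 (-0.31, adjusted p = 0.18) did not pass.

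Within a branch the microRNAs were not told apart. miR-103 against miR-107 gave 0 of 27 calls (0% of all genes, with 0 of the 27 at an unadjusted p under 0.05), and the differences ran from -0.38 to 0.25. miR-16 against miR-195 also gave 0 of 27 (0% of all genes, 0 at an unadjusted p under 0.05), with differences from -0.39 to 0.21. The widest 95% intervals of single genes reached -1.17 and 0.85 in the first and -1.19 and 0.68 in the second, so differences of about 1 log2 unit in the noisiest genes would not have been seen.

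Most of the mitosis genes fell with miR-107-mut2, and with miR-107-mut1 26 of 27 were not called. With miR-107-mut1 0 of 27 mitosis genes fell and 1 rose (5.44% of all genes tested fell and 3.33% rose), with a median change of 0.17 and the array medians at -0.03, 0.15 and 0.30. With miR-107-mut2, 26 of 27 fell (7.58%), all without overlap (21.6% of all genes tested), with a median change of -1.59 and the array medians at -1.95, -1.43 and -1.36. Without the filter the falls were 0 and 42 of 49 (3.56% and 6.16% of all genes).

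The gene that rose with miR-107-mut1 was KIF18B, a kinesin that shortens astral microtubules. It was at 9.21, 9.46 and 9.55 in control lysate and at 10.11, 10.32 and 10.26 with miR-107-mut1, above every control array (0.83 ± 0.21, 1.77-fold, adjusted p = 0.013 by limma). It did not pass in 3 of 6 fits that left out 1 array, among them those without miR-107-mut1 replicate 3 or control replicate 1, where the count of calls was 0. With miR-107 itself KIF18B was at 7.46, 7.69 and 7.51, so the altered and the natural molecule lay on either side of control.

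With miR-107-mut2 CCNB1 was at 7.88, 7.99 and 8.45, against the control values of 10.09, 10.21 and 10.15, a change of -2.05 ± 0.16 (4.13-fold lower, adjusted p = 3.2e-08 by limma). PLK1 was at 9.88, 10.22 and 10.43 and KIF20A at 8.84, 9.38 and 9.90, all below their control arrays. CDC25B, at 10.23, 10.13 and 10.05, was again the gene of the 27 that did not pass (-0.26 ± 0.16, adjusted p = 0.29). BUB3 (-0.41, adjusted p = 0.031) and INCENP (-0.36, adjusted p = 0.041) passed narrowly, and of 6 fits that left out 1 array BUB3 missed the threshold in 4 and INCENP in 6.

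Set against each other in the lysate, miR-107 was lower than miR-107-mut1 in 24 of 27 mitosis genes (6.51% of all genes tested were lower), with a median difference of -2.06. The other 3 were CDC25B (0.32, adjusted p = 0.23), BUB3 (adjusted p = 0.18) and INCENP (adjusted p = 0.25). miR-107 against miR-107-mut2 gave 0 calls among the 27 (0.0814% of all genes tested), with 2 at an unadjusted p under 0.05. The differences ran from -0.63 in PLK1 to 0.24 in CDC25B with a median of -0.22, and 25 of 27 were below 0. PLK1 was at 9.56, 9.53 and 9.52 with miR-107 and at 9.88, 10.22 and 10.43 with miR-107-mut2, and its unadjusted 95% interval of the difference ran from -1.03 to -0.24 (adjusted p = 0.73 by limma). CDCA8, at -0.51 (adjusted p = 1), was the other, and single-gene intervals reached -1.04 and 0.61. miR-107-mut1 and miR-107-mut2 were not tested against each other.

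**Figure D4:**
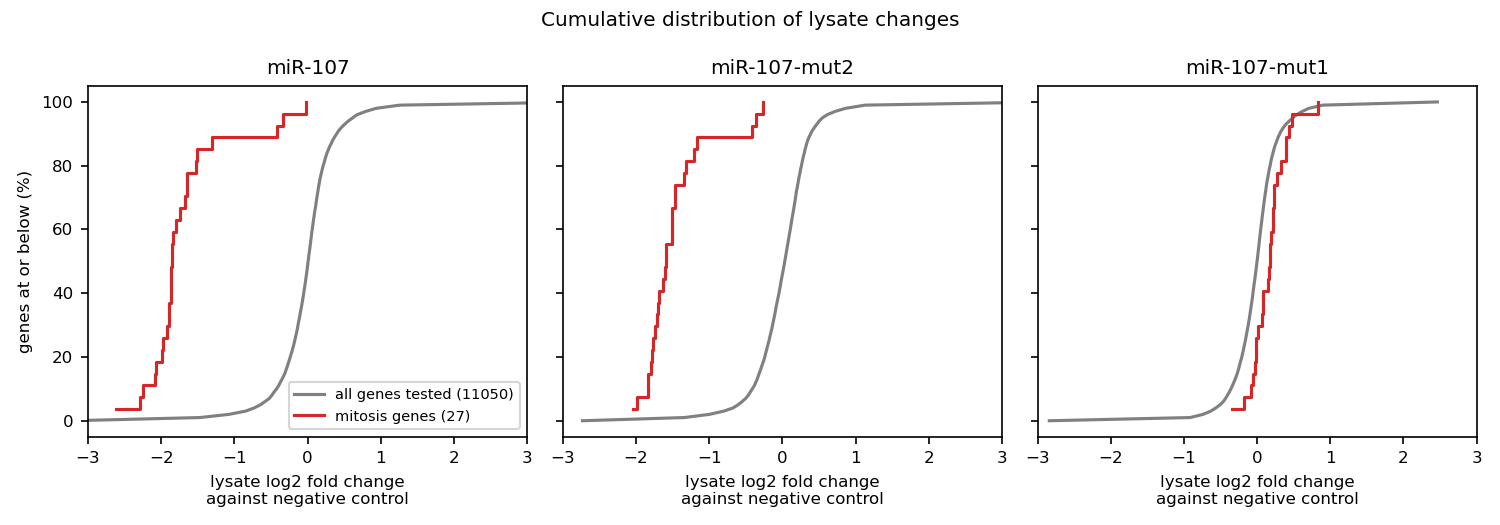
Share of genes (y axis, percent) at or below each lysate log2 fold change against the negative control (x axis), for 27 mitosis genes (red) and all 11050 genes tested (grey), with miR-107, miR-107-mut2 and miR-107-mut1. The red curve lies far to the left of the grey one in the first 2 panels, with medians of -1.85 and -1.59, and close to it on the right in the last, with a median of 0.17.

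miR-320 left the mitosis genes near control. Of 27, 0 were called (2.96% of all genes tested in either direction, 0 of the 27 at an unadjusted p under 0.05), with changes from -0.45 in PRR11 to 0.33 in AURKA. The array medians were -0.51, 0.07 and 0.07, so replicate 1 was lower than the other 2. Without the filter 1 of 49 fell (1.08% of all genes), SPC25, at 7.21, 8.07 and 7.72 against 8.28, 8.53 and 8.30 (-0.70 ± 0.18, adjusted p = 0.048 by limma).

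With miR-15b* 2 of 27 fell (4.04% of all genes tested fell), and 12 had an unadjusted p under 0.05. BIRC5 was at 8.65, 9.06 and 8.72 against 9.49, 9.75 and 9.75 in control lysate (-0.85 ± 0.17, 1.81-fold lower, adjusted p = 0.0024 by limma). With only the arrays compared 0 of 27 were called, in a fit that called 50 of all 11050 genes, and BIRC5 had an adjusted p of 0.073. MKI67 was at 8.68, 7.77 and 9.12 against 9.17, 9.84 and 9.54 (2.00-fold lower, SE 0.29 on the log2 scale, adjusted p = 0.035 by limma). Without the arrays that stood apart, among them replicate 2 with its MKI67 value of 7.77, MKI67 was at -0.62 and did not pass (adjusted p = 0.13). TOP2A showed the same spread, at 8.95, 7.37 and 9.23, and did not pass (adjusted p = 0.076). Without the filter 6 of 49 fell (3.62% of all genes). The count over the 27 was 1 without control replicate 2 or 3 or without miR-15b* replicate 2, and 4 without miR-15b* replicate 1 or 3.

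Other genes of mitosis, a separate list of 94 of which 60 were tested, also held many genes that fell in the lysate. Of the 60, 37 fell with miR-103 (8.88% of all genes tested fell), 36 with miR-107 (8.35%), 38 with miR-16 (7.45%), 35 with miR-195 (7.22%) and 34 with miR-107-mut2 (7.58%), and 0 rose in any of these, with medians of -0.97, -0.84, -1.02, -0.79 and -0.70. The largest falls with miR-103 were MYBL2 (-2.31), a transcription factor of late cell cycle genes, and OIP5 (-2.27), which helps load CENPA. With miR-107 they were MYBL2 (-2.51) and the sororin gene CDCA5 (-2.26), and with miR-16 and miR-195 the spindle gene SPAG5 (-2.54 and -2.41) and the transcription factor gene FOXM1 (-2.21 and -2.29). By role with miR-107, spindle and cytokinesis genes fell in 12 of 13 cases, kinases and phosphatase regulators in 7 of 8, condensin genes in 3 of 3 and kinetochore genes in 8 of 12. Subunits and partners of the anaphase promoting complex fell in 3 of 13, cohesin genes in 1 of 5 and transcription genes in 2 of 6.

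With miR-107-mut1 4 of these 60 genes fell and 1 rose, shares near or below those of all genes tested (5.44% and 3.33%). SPC24, which pairs with SPC25 in the kinetochore, fell by 1.86 ± 0.29 (adjusted p = 0.00021 by limma), and NCAPD3, a condensin II gene, rose by 0.50 ± 0.14 (adjusted p = 0.021 by limma). SPC25 itself was at 0.09 there (adjusted p = 0.93), so the partners differed in that lysate, though that difference was not tested. With miR-320 WEE1, a kinase that holds back mitosis, fell by 0.62 (adjusted p = 0.016), the 1 call of 60 there (2.96% of all genes tested in either direction), and with miR-15b* 10 fell (4.04% of all genes tested fell).

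In the IP few mitosis genes passed, and those that did were lower. With miR-103, 2 of 27 fell (1.79% of all genes tested fell), with miR-107 5 (3.61%), with miR-16 6 (1.12%) and with miR-195 3 (0.615%), and 0 rose. The medians over the 27 were -0.55, -0.62, -0.59 and -0.67, against -0.09, -0.19, -0.08 and -0.07 over all genes tested. These changes are in the level on IP arrays and are not corrected for the lysate, in which most of the same RNAs were lower as well.

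CDC25C was at 5.96, 5.26 and 6.74 in control IP, 3.23, 3.15 and 3.27 with miR-103 and 3.34, 3.21 and 3.58 with miR-107. The groups were far apart, and the miR-103 change was -2.77 ± 0.46 (6.83-fold lower, adjusted p = 0.0018 by limma). With miR-107 CDC25C fell by 2.62 (adjusted p = 0.0021), with miR-16 by 2.44 (adjusted p = 0.0081) and with miR-195 by 2.20 (adjusted p = 0.025). It was also the 1 gene of 27 to fall in the IP with miR-107-mut2 (0.317% of all genes tested fell), at 3.60, 3.81 and 3.57 (-2.33 ± 0.46, adjusted p = 0.021 by limma). In the lysate CDC25C went from 8.49, 8.19 and 8.31 in control to 6.63, 6.89 and 7.0 with miR-103. Its IP and lysate changes were not tested against each other, since the arrays of each fraction appear to have been normalized apart.

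PLK1 was at 6.74, 7.26 and 7.75 in control IP and at 5.24, 5.12 and 5.0 with miR-103, 5.26, 5.40 and 4.32 with miR-107, 5.30, 4.93 and 5.35 with miR-16 and 5.18, 4.89 and 5.59 with miR-195. All 12 arrays lay below the control arrays, with changes from -2.26 to -2.03 and adjusted p-values by limma from 0.0044 to 0.028. KIF18B was at 5.88, 6.24 and 7.03 in control IP and at 4.23, 4.55 and 4.50 with miR-16 (-1.96 ± 0.38, adjusted p = 0.0089 by limma), and it fell with miR-107 and miR-195 too. With the mean of its probe sets in place of the highest, KIF18B did not pass with miR-16 (adjusted p = 0.077) or miR-195 (adjusted p = 0.082).

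CCNB2 was at 4.94, 4.46 and 6.02 in control IP and at 3.16, 3.39 and 3.03 with miR-16 (-1.95 ± 0.45, adjusted p = 0.031 by limma). AURKB was at 6.69, 6.75 and 6.73 in control IP and at 5.01, 5.19 and 5.49 with miR-16 (-1.49 ± 0.35, adjusted p = 0.037 by limma). Both fell with miR-107 as well, CCNB2 by 1.66 (adjusted p = 0.037) and AURKB by 1.30 (adjusted p = 0.039). AURKA passed with miR-16 alone, at 3.08, 2.90 and 2.34 against 3.75, 3.95 and 4.95 (-1.44 ± 0.31, adjusted p = 0.023 by limma). Its difference between microRNAs did not pass in the IP contrast of the branches, which called 0 of the 27 (0.38% of all genes in either direction, 0 at an unadjusted p under 0.05).

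The number of IP calls moved with the arrays and settings used. Without control IP replicate 3, which had the highest control values of CDC25C, PLK1, CCNB2, AURKA and KIF18B, the counts with miR-103, miR-107, miR-16, miR-195 and miR-107-mut2 were 1, 2, 0, 0 and 0. With miR-16 the count was 2 without its replicate 1 and 1 without its replicate 2. With miR-195 it was 1 without its replicate 1 and 0 without its replicate 2, and with miR-107 it was 3 without its replicate 1 or control replicate 1 and 2 without its replicate 2. With miR-107-mut2 it was 0 without any of its replicates or without control replicate 1. Over all genes tested, the fits that left out 1 array called 46 to 165 with miR-103 and 92 to 340 with miR-107. They called 19 to 124 with miR-16, 16 to 66 with miR-195 and 6 to 24 with miR-107-mut2. Without IP replicate 1 of miR-15b*, the IP array that stood apart, the counts with miR-103 and miR-107 were 6 and 8. Those with miR-195 and miR-107-mut2 were 5 and 2. These fits called 421, 989, 184 and 73 of all 11050 genes in either direction. With only the arrays compared in the fit the counts with miR-103, miR-107, miR-195 and miR-107-mut2 were 10, 9, 1 and 2. Over all genes tested these fits called 847, 1330, 27 and 34. After cyclic loess the counts with miR-103, miR-195 and miR-107-mut2 were 8, 7 and 5, where 441, 193 and 120 of all genes were called.

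CDC25B was called in neither fraction with miR-103 or miR-107. With miR-103 and miR-107, where its lysate level did not move, its IP level was 5.66, 5.77 and 5.40, and 5.52, 4.95 and 5.42, against 6.68, 6.29 and 6.95 in control IP. The IP groups did not overlap, but the changes of -1.03 ± 0.39 (adjusted p = 0.19) and -1.35 ± 0.39 (adjusted p = 0.056) did not pass. The difference between fractions was not tested, since the arrays of each appear to have been normalized apart.

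By IP level, of the 6 genes above the upper quartile of all genes 3 were called in some IP comparison (PLK1, AURKB and KIF18B). Of 11 between the median and the upper quartile 3 were called (CDC25C, CCNB2 and AURKA), and of 32 below the median 0 were called, 10 of them tested. Without the filter 0 of the 22 genes below it were called in any IP comparison with control, and their IP changes with miR-107 lay between -0.25 and 0.69. SPC25, with the largest lysate fall, had a mean IP level of 1.77, and TOP2A one of 2.59, with an IP change of 0.05 with miR-107. Levels this low leave little room for a fall in the IP, and whether they account for the absence of calls was not tested.

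**Figure D5:**
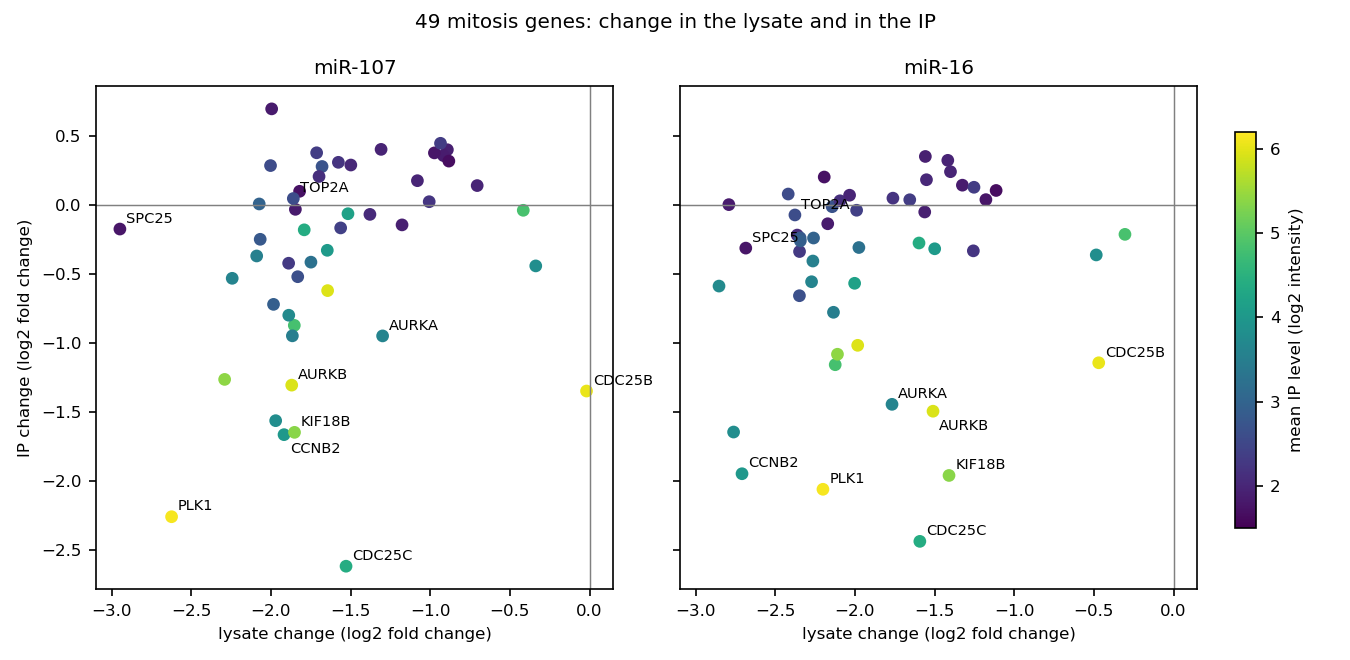
Lysate log2 fold change (x axis) and IP log2 fold change (y axis) against the negative control of 49 mitosis genes with miR-107 (left) and miR-16 (right), coloured by mean IP level. The lowest points, PLK1 and CDC25C, have mean IP levels above the median of all genes, while dark points with IP levels near 2 lie around an IP change of 0 whatever their lysate change.

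With the remaining RNAs the IP showed 0 calls among the 27. miR-320 had 0 (2.21% of all genes in either direction, 0 at an unadjusted p under 0.05) with a median of 0.01. miR-15b* had 0 (0.217%, 2 at an unadjusted p under 0.05) with a median of -0.26 against -0.17 for all genes, and array medians of -0.77, -0.20 and -0.03, the lowest being the array that stood apart. Without replicate 3 of miR-15b* the count was 4, in a fit that called 1407 of all 11050 genes, a like share. miR-107-mut1 had 0 (0.742%, 0 at an unadjusted p under 0.05) with a median of 0.18 and array medians from -0.20 to 0.72. PLK1 was at 7.05, 7.07 and 8.51 with miR-107-mut1 and at 7.20, 7.68 and 8.39 with miR-320, within or near the control range.

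Of the other mitosis genes in the IP, 6 of 60 fell with miR-103 (1.79% of all genes tested fell), 9 with miR-107 (3.61%), 5 with miR-16 (1.12%) and 4 with miR-195 (0.615%). CKS1B, a small CDK-binding protein gene, fell by 2.76, 3.03, 3.21 and 2.93 in these, and FOXM1 by 2.39, 2.71, 2.43 and 2.38. With miR-320 2 of 60 rose, near the share of all genes tested (2.12%), namely E2F4 (2.82, adjusted p = 0.0039) and LIN37 (1.88, adjusted p = 0.0042), both parts of the complex that silences cell cycle genes in resting cells. With miR-107-mut2 the kinetochore gene SKA2 fell by 1.26 (adjusted p = 0.034).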

How the data were processed

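Total lysate RNA and anti-Argonaute immunoprecipitates of transfected H4 cells were hybridised to Human Gene 1.0 ST arrays. RMA values from Affymetrix Expression Console 1.1 were deposited, per the submitters' processing notes. These deposited values were taken to be log2 intensities, as RMA gives, though the log base is not given in the sources used here, which limits every fold. Of 33297 probe sets, the 19460 with 1 gene symbol were used, 1754 had several and 12083 none, and 19429 symbols were taken from the gene table by gene ID. They gave 18417 genes (769 with more than 1 probe set, the highest mean kept). A filter on the mean of the 54 arrays removed the lowest 40% of genes (7367, below 5.26) and left 11050 to test. Each fraction's 27 arrays were fitted with 1 mean per transfection in limma 3.58.1 (R 4.3.3, lmFit and eBayes), with Benjamini-Hochberg adjustment over all genes tested. p-values set each difference against the spread between replicates, labelled biological. That spread was estimated over all 27 arrays of a fraction, and 3 arrays a group limit the precision of the p-values. Figures were drawn with matplotlib 3.10.9. The code was tested on simulated data.

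The 50 genes, the 94 other mitosis genes and the markers were chosen with earlier results of these data known. Genes given in full were the 3 largest called changes without overlap in each of the 4 family lysate comparisons, genes called against the majority, every gene where 5 or fewer were called, and genes called in the IP. TOP2A, AURKB, CDCA8, SPC25, CDK1 and DLGAP5 were also described after their values were seen. The alternatives tried were testing all genes, leaving out the lowest 60%, a filter on the lysate or IP mean alone (the former chosen after seeing the data), cyclic loess, the replicate number as a block, only the arrays compared, leaving out arrays that stood apart (median correlation more than 3 MAD below the median), the mean of a gene's probe sets, and leaving out each array in turn.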

Additional observations from a re-analysis of the deposited data

Results flagged for a closer look

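INCENP moved in opposite directions in the 2 fractions with miR-103. In the IP its level changed from the control mean by 0.19 on average (0.04 to 0.27 over 3 arrays), and in the lysate by -0.41 (-0.50 to -0.23). The difference was not tested, the IP change was not called, and the arrays of the fractions were normalized apart.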

How the results depend on the processing

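No called change of a mitosis gene changed sign under any alternative run. The filters, the fit of only the arrays compared and the replicate block leave each difference of group means as it is. With those settings the sign could not change. Of 176 called changes, 4 did not pass without the filter, 1 after cyclic loess, 11 with only the arrays compared, 1 without the arrays that stood apart, 2 with the mean of probe sets and 0 with the replicate block, and of 1068 fits that left out 1 array 96 did not pass. Counts for miR-103, miR-107, miR-16, then miR-195, miR-320, miR-15b*, miR-107-mut2 and miR-107 against miR-107-mut1 in the lysate were 47, 42, 47, 43, 1, 6, 42 and 45 without the filter, when 49 genes were tested. With the lowest 60% left out, when 17 were tested, they were 16, 15, 16, 17, 0, 1, 16 and 14, and the IP counts for miR-103 and miR-107-mut2 were 1 and 0. With only the arrays compared, the lysate counts were 0 for miR-15b*, 3 for miR-107-mut1 and 1 for the branch contrast. The IP counts were 10, 9, 1 and 2 for miR-103, miR-107, miR-195 and miR-107-mut2. Over all 11050 genes the lysate fits called 50, 1555 and 670, and the IP fits 847, 1330, 27 and 34. Without the arrays that stood apart the lysate counts were 1 for miR-15b* and 2 for miR-107-mut1. The IP counts were then 6, 8, 5 and 2 for miR-103, miR-107, miR-195 and miR-107-mut2. These fits called 1299 and 2119 of all genes in the lysate and 421, 989, 184 and 73 in the IP. After cyclic loess the IP counts for miR-103, miR-195 and miR-107-mut2 were 8, 7 and 5, with 441, 193 and 120 of all genes called. The cause of these moves was not tested beyond the number of genes or arrays used. Replicate numbers are shared between transfections, and samples of the same number deviated together in part: in 84 of 108 IP pairs and 79 of 108 lysate pairs the correlation of deviations was over 0.1 (means 0.27 and 0.31, other pairs -0.13 and -0.14), so not every pair did. With the replicate block the IP counts for miR-103, miR-107, miR-16, then miR-195, miR-15b* and miR-107-mut2 were 9, 12, 10, 10, 1 and 7. The lysate counts were 7 for miR-15b*, 3 for miR-107-mut1 and 5 for the branch contrast. Over all 11050 genes those IP fits called 850, 1950, 586, 396, 521 and 156 in either direction, and the lysate fits 1509, 1591 and 1736. The other 13 counts stayed within 1.5 times with the block.

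Leaving out each array in turn, the lysate counts ranged from 25 to 26 for miR-103, 24 to 25 for miR-107, 24 to 27 for miR-16, 25 to 26 for miR-195, 24 to 25 for miR-107-mut2, 1 to 4 for miR-15b*, 0 to 1 for miR-107-mut1, 1 to 4 for the branch contrast and 24 to 24 for miR-107 against miR-107-mut1. In the IP they ranged from 1 to 2, 2 to 4, 0 to 5 and 0 to 2 for the same 4 microRNAs, 0 to 4 for miR-15b* and 0 to 1 for miR-107-mut2.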
